A study of Mus musculus with 6 samples.

Results

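The JAK2-STAT5 pathway and its feedback genes were followed as 7 genes chosen by name, Jak2, Stat5a, Stat5b, Socs2, Socs3, Cish and Bcl6, out of the 40824 genes in the deposited table of read counts. All 7 were in the table and all 7 passed the filter on low counts. The material was nuclei of hepatocytes, sequenced one by one with Smart-seq3xpress, a plate method that reads along the whole transcript. The groups were G0 and G14.5, both named for their day of gestation, and P7L (day 7 after birth, lactating). All mice were C57BL/6J females, wild type and mated at about 8 weeks of age, and no group carried a transgene, a deletion or a treatment by the labels. Each stage had 2 libraries, 1 from perfusion of the liver and 1 from liver tissue. The p-values rest on the spread between these libraries that is left after terms for stage and preparation. That spread is how far the 2 preparations differed in their stage changes. For each gene, edgeR drew it towards a trend over all tested genes. The trend had a median weight of 5.13 degrees of freedom, beside 2 residual ones from the gene itself. The labels do not name the animals behind a library, so the spread between libraries may be technical. The labels call the libraries nuclei, while their protocol describes whole hepatocytes picked by hand after collagenase digestion.

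Growth hormone, prolactin, leptin and other cytokines act through receptors that have no kinase of their own and borrow JAK2, a tyrosine kinase bound to the inner side of the receptor. Activated JAK2 phosphorylates STAT5A and STAT5B, closely related transcription factors that pair up, enter the nucleus and bind DNA at the letters TTCNNNGAA. In liver, STAT5B is known for carrying the growth hormone signal to Igf1 and to sex-biased genes. CIS (from Cish), SOCS2 and SOCS3 are made in response to the signal and restrain it at the receptor or the kinase, and BCL6 is a repressor that shares binding sites with STAT5.

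The 6 libraries held 1567 nuclei, 184 to 308 per library, and 226030591 to 379767336 reads. Values are given as CPM, the usual counts scaled to library size: the reads of a gene summed over the nuclei of a library, with TMM factors. The 10 hepatocyte markers all had reads in every library and together took 1.54% to 1.83% of them. Among the markers of other cell types, those of cholangiocytes took the most, 0.0167% to 0.0264% of reads, with Krt19 at most 0.0501 CPM and Epcam at most 0.191 CPM. The 10 stellate cell markers summed to 11.4 to 31.2 CPM, with Lrat at 0 in all 6 libraries and Reln at 5.50 to 16.7 CPM. The 8 erythroid markers summed to 34.8 to 74.3 CPM, with Alas2 at 0 in all 6 libraries, Tfrc at 34.0 to 70.7 CPM and Hbb-bs at 0.145 to 4.55 CPM. The part of these cell types in the results was not tested. Immediate early and heat shock genes, which respond to handling of tissue, summed to 401 CPM in perfusion and 312 CPM in liver tissue at G0, 156 and 110 CPM in the G14.5 libraries, and 252 and 107 CPM in those of P7L, so they were highest at G0. Nuclei with low and high numbers in their column names differed in several genes described here, and the labels do not say what the numbers stand for. Each library was therefore split at its median number. Socs2, Cish, Socs3, Stat5a, Prlr and Igf1 are described in lower-numbered and upper-numbered nuclei, with Ghr, Stat5b and Jak2 at G0.

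Jak2, the kinase itself, lies at chr19:29251828-29313080 on the plus strand of GRCm38 and overlaps no other annotated gene in GENCODE M21. It had 69.9 CPM in perfusion and 64.3 CPM in liver tissue at G0, 80.1 and 80.5 CPM in the G14.5 libraries, and 75.7 and 69.5 CPM in those of P7L. The libraries thus lay within a narrow band, with both G14.5 libraries above the others and those of P7L overlapping G0, and no difference passed the test. In edgeR's quasi-likelihood test the log2 fold change was 0.26 ± 0.17 (SE) at G14.5 against G0 (adjusted p = 0.344), 0.11 ± 0.17 at P7L against G0 (adjusted p = 0.733) and -0.15 ± 0.17 at P7L against G14.5 (adjusted p = 0.659). The P7L value against G14.5 changed sign under some settings. Jak2 reads were unevenly spread over nuclei: the 10% of nuclei with the most reads held 56.5% to 77.8% of them.

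Stat5b and Stat5a lie head to head on chromosome 11, 8626 bases apart. Stat5b runs on the minus strand at chr11:100780731-100850724 and Stat5a on the plus strand at chr11:100859351-100885169. Of the 4149 different stretches of 50 letters in the protein-coding transcripts of Stat5a, 608 (14.7%) also occur in those of Stat5b, so values of the pair are uncertain where reads fall in such stretches; how the authors' counting treated these reads is not given in the sources used here. Stat5a also shares 72 exonic bases with Stat3 on the opposite strand (312 to 542 CPM), and the use of strand is not given in the sources used here.

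Stat5b had 247 CPM in perfusion and 272 CPM in liver tissue at G0, 239 and 201 CPM in the G14.5 libraries, and 180 and 148 CPM in those of P7L. Both P7L libraries were below all 4 others. The log2 fold change was -0.67 ± 0.15 at P7L against G0, with an adjusted p of 0.0676, just outside the threshold of 0.05. It was -0.43 ± 0.15 at P7L against G14.5 (adjusted p = 0.144) and -0.25 ± 0.15 at G14.5 against G0 (adjusted p = 0.331). DESeq2 called the P7L difference from G0 (adjusted p = 0.0121), and so did edgeR without the G0 perfusion library (adjusted p = 0.0261). The P7L difference from G14.5 was called without G0 liver tissue (adjusted p = 0.0353) and without G0 perfusion (adjusted p = 0.035). Stat5b was read in nearly all nuclei: after thinning each nucleus to 250000 reads, it had a read in 96.7% to 99.3% of them in every library.

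Stat5a had 14.1 CPM in perfusion and 41.2 CPM in liver tissue at G0, 46.5 and 37.0 CPM in the G14.5 libraries, and 24.2 and 16.2 CPM in those of P7L. The G0 libraries lay so far apart that they enclosed both P7L libraries, and the preparations moved in opposite directions from G0 to P7L. No comparison passed the test: the log2 fold change was 0.65 ± 0.50 at G14.5 against G0 (adjusted p = 0.435), -0.39 ± 0.50 at P7L against G0 (adjusted p = 0.696) and -1.04 ± 0.49 at P7L against G14.5 (adjusted p = 0.255). Direction and calls depended on single libraries. Without G0 liver tissue the log2 fold change was 1.78 at G14.5 (adjusted p = 0.0147) and 0.71 at P7L (adjusted p = 0.186) against G0. Without G0 perfusion it was -0.22 at G14.5 (adjusted p = 0.608) and -1.29 at P7L (adjusted p = 0.0486) against G0. Without P7L liver tissue the P7L value against G0 was 0.24. Without G0 liver tissue or G0 perfusion the P7L difference from G14.5 was called, at -1.08 (adjusted p = 0.0179) and -1.07 (adjusted p = 0.0138). Thinned nuclei with a Stat5a read made up 35.9% and 45.6% at G0, 58.0% and 54.5% in the G14.5 libraries, and 51.4% and 43.2% in those of P7L, perfusion first. Per unit of gene length, on the authors' length-scaled values, Stat5b stood above Stat5a in all 6 libraries, by 13.2 times in G0 perfusion and by 3.98 to 7.02 times in the other 5.

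Socs2, whose product is known as the main brake on growth hormone signalling in mice, was the member called in all 3 stage comparisons. It lies at chr10:95385362-95417180 on the minus strand, with no overlapping annotated gene. It had 158 CPM in perfusion and 98.9 CPM in liver tissue at G0, 301 and 352 CPM in the G14.5 libraries, and 11.2 and 15.2 CPM in those of P7L. No stage overlapped another. At G14.5 against G0 Socs2 rose 2.54-fold (log2 fold change 1.34 ± 0.26, adjusted p = 0.0204), up in both preparations. At P7L against G0 it fell 9.75-fold (log2 fold change -3.29 ± 0.28, adjusted p = 0.00424), and at P7L against G14.5 it fell 24.7-fold (log2 fold change -4.63 ± 0.30, adjusted p = 0.000366). The call at G14.5 against G0 was lost without G14.5 liver tissue (log2 fold change 1.18, adjusted p = 0.113) and without G14.5 perfusion (1.54, adjusted p = 0.0523). The call at P7L against G0 was lost with the authors' values and a pseudocount of 1 (adjusted p = 0.0743). The call at G14.5 was also lost among the nuclei with higher column numbers, as described further on.

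Cish, the first described member of the SOCS family, lies at chr9:107296026-107302784 on the plus strand. On the opposite strand, the pseudogene Gm17040 and the antisense gene Gm17041 share 261 and 479 exonic bases with it; Gm17040 had at most 0.325 CPM and Gm17041 was at 0 in all libraries, though without strand reads cannot be told apart. The promoter of Cish is shown because STAT5 sites near its start are well described, and because Cish is one of the members that fell. The window of 250 bases before to 50 bases after the RefSeq start (GRCm38.p6, chr9:107296409-107296708, plus strand) holds the letters TTCNNNGAA at +1 and +12 from the start, in capitals.
Cish promoter: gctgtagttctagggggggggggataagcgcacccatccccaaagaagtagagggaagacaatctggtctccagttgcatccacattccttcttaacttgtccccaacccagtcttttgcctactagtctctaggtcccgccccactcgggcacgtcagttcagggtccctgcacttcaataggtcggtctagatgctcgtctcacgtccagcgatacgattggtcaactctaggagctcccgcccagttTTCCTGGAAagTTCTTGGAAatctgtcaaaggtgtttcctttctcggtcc
Of 32851 promoter windows of this length, 8.3% held the letters at least once and 0.457% at least 2 times; the letters read the same on both strands, other STAT proteins bind them too, and a match is a description of letters, not a binding site. Windows were given for 6 of the 7 genes. Socs3 held 1 match and Bcl6 held matches in both of its windows, while those of Jak2, Stat5a and Stat5b held none.

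Cish had 6.83 CPM in perfusion and 6.08 CPM in liver tissue at G0, 11.9 and 6.38 CPM in the G14.5 libraries, and 0.555 and 0.49 CPM in those of P7L. The P7L libraries stood far below the rest, while G0 and G14.5 overlapped. Cish fell 12.4-fold at P7L against G0 (log2 fold change -3.63 ± 0.48, adjusted p = 0.0188) and 16.9-fold at P7L against G14.5 (-4.08 ± 0.49, adjusted p = 0.00329). At G14.5 against G0 the log2 fold change was 0.45 ± 0.43 (adjusted p = 0.531). The P7L level rested on few reads, 191 from 21 of 298 nuclei in perfusion and 137 from 19 of 308 nuclei in liver tissue. The P7L call against G0 was lost without either P7L library (adjusted p = 0.164 without perfusion and 0.0928 without liver tissue) and with the authors' values (adjusted p = 0.164 with a pseudocount of 1 and 0.0644 with 0.1). With a pseudocount of 1, the call against G14.5 was lost too (adjusted p = 0.064).

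Socs3, the feedback gene best known downstream of IL-6 type cytokines and STAT3, lies at chr11:117966079-117970047 on the minus strand. It had 7.10 CPM in perfusion and 4.09 CPM in liver tissue at G0, 1.86 and 2.91 CPM in the G14.5 libraries, and 2.24 and 1.70 CPM in those of P7L. The G0 libraries lay above all others. The log2 fold change was -1.19 ± 0.56 at G14.5 against G0 (adjusted p = 0.215), -1.49 ± 0.56 at P7L against G0 (adjusted p = 0.19) and -0.31 ± 0.55 at P7L against G14.5 (adjusted p = 0.801), and none passed. DESeq2 called the P7L difference from G0 (adjusted p = 0.0385). The immediate early genes were also highest at G0: Egr1 had 170 and 120 CPM at G0, 34.4 and 21.5 CPM in the G14.5 libraries and 28.6 and 8.66 CPM in those of P7L, perfusion first. Their part in the Socs3 values was not tested.

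Bcl6, the repressor, lies at chr16:23965052-23988852 on the minus strand and shares 21 exonic bases with Gm37419 on the other strand. The second of its RefSeq starts is shown, because its window (GRCm38.p6, chr16:23981234-23981533, minus strand, printed along the gene) holds 3 matches to TTCNNNGAA, at -168, -122 and -88 from that start, in capitals. The site at -168 has the same 9 letters as the Cish site at +1.
Bcl6 second promoter: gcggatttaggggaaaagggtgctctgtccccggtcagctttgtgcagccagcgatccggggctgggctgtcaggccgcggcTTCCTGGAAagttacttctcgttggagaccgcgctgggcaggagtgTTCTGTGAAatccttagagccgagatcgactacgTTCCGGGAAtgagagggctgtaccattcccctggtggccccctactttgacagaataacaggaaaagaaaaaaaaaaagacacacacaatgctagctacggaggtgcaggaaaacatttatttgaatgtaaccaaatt
Bcl6 had 148 CPM in perfusion and 147 CPM in liver tissue at G0, 124 and 182 CPM in the G14.5 libraries, and 175 and 190 CPM in those of P7L. The P7L libraries lay above those of G0, and those of G14.5 spread across both. The log2 fold change was 0.30 ± 0.17 at P7L against G0 (adjusted p = 0.357), 0.27 ± 0.17 at P7L against G14.5 (adjusted p = 0.405) and 0.03 ± 0.17 at G14.5 against G0 (adjusted p = 0.926). A Bcl6 read was found in 92.8% to 99.7% of thinned nuclei in every library.

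**Figure D1:**
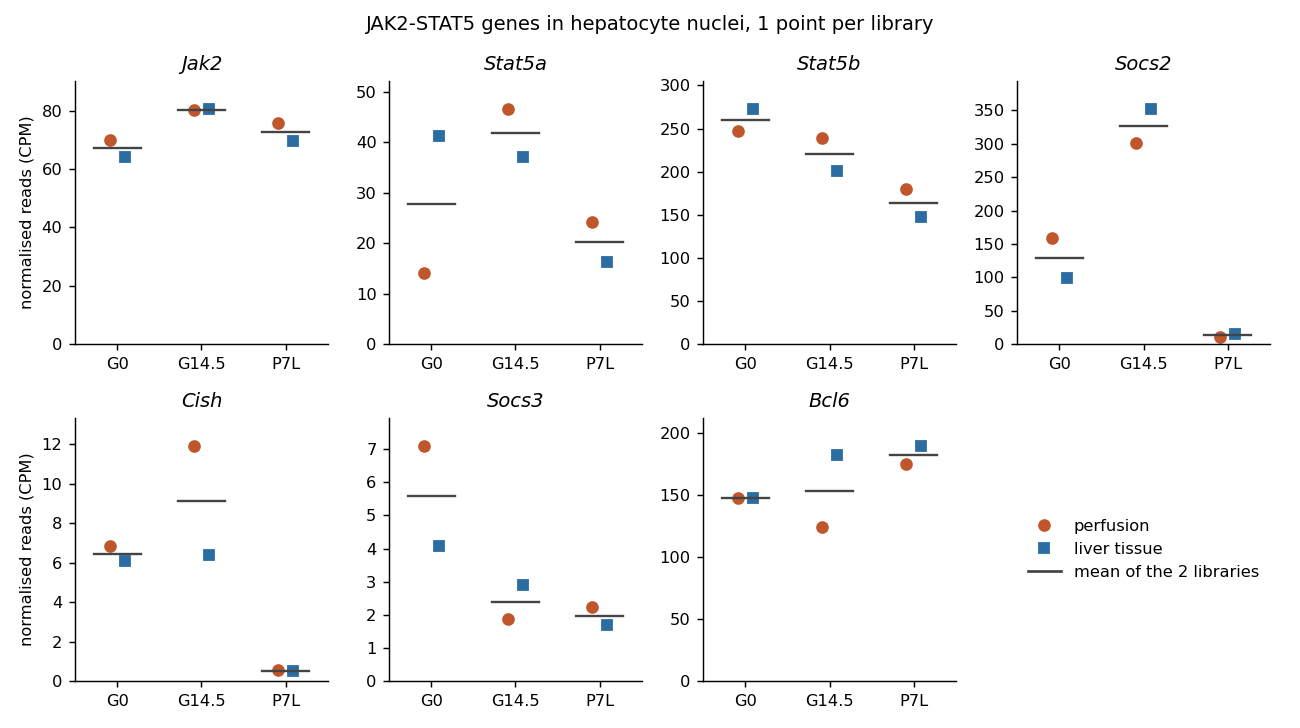
Normalised reads (CPM, linear axis from 0) of the 7 genes at G0, G14.5 and P7L, 1 point per library (circles, perfusion; squares, liver tissue) with the mean of the 2 libraries as a bar. Socs2 stands at 301 and 352 CPM at G14.5 and at 11.2 and 15.2 CPM at P7L, Cish drops to 0.555 and 0.49 CPM at P7L, and the G0 libraries of Stat5a lie at 14.1 and 41.2 CPM.

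Read together, the 7 genes gave 1 call at G14.5 against G0 (Socs2, higher), where 11.9% of the 15015 tested genes were called, 6.93% as higher and 5.01% as lower. At P7L against G0 there were 2 calls, Socs2 and Cish, both lower, against 2.92% of tested genes called, 1.56% as higher and 1.36% as lower. The same genes were the 2 called at P7L against G14.5, both lower, where 9.26% of tested genes were called, 4.2% as higher and 5.06% as lower. The median log2 fold change of the 7 was 0.26, -0.67 and -0.43 in these 3 comparisons, against -0.01, 0.01 and -0.00237 over all tested genes. Libraries of the compared stages did not overlap for 4, 5 and 5 of the 7 genes, but 56.2%, 54.8% and 57.4% of all tested genes also did not overlap, so these counts are close to the background. With library size alone in place of TMM, the split of calls over all genes moved from 1040 higher and 753 lower to 891 and 1101 at G14.5 against G0, from 234 and 204 to 309 and 172 at P7L against G0, and from 630 and 760 to 1048 and 551 at P7L against G14.5; Socs2 and Cish kept their calls and directions. That scaling moved the median of all genes by up to 0.20 on the log2 scale.

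**Figure D2:**
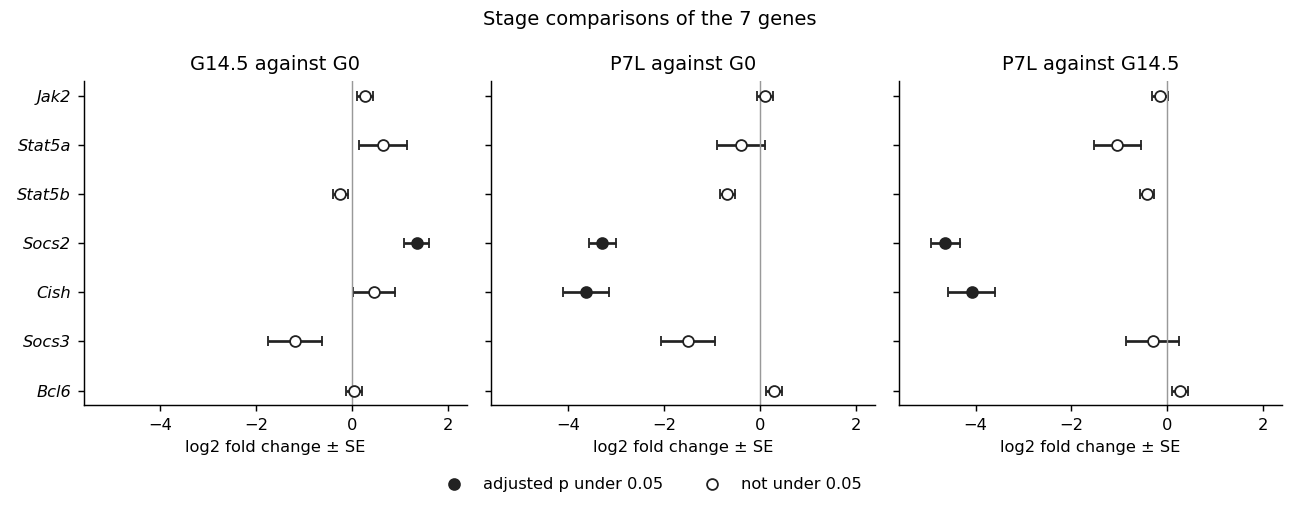
Log2 fold change of each gene in the 3 stage comparisons (points, first stage over second, with the standard error as bars); filled points have an adjusted p under 0.05 in edgeR's quasi-likelihood test. Socs2 is filled in all 3 panels, at 1.34, -3.29 and -4.63, and Cish in the P7L panels, at -3.63 and -4.08.

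Socs2 differed between lower-numbered and upper-numbered nuclei of a library, and in opposite directions at G0 and G14.5. At G0 the upper-numbered nuclei held 212 CPM in perfusion and 121 CPM in liver tissue, against 107 and 54.8 CPM in the lower-numbered ones. At G14.5 the upper-numbered nuclei held 191 and 257 CPM, against 456 and 446 CPM in the lower-numbered ones. At P7L they held 7.95 and 16.3 CPM, against 14.6 and 13.8 CPM. By these sums, lower-numbered nuclei held less Socs2 than upper-numbered ones in both G0 libraries and more in both G14.5 libraries. In 4 runs of nuclei by number, Socs2 had 161, 59.8, 175 and 263 CPM in G0 perfusion and 23.1, 93.8, 128 and 114 CPM in G0 liver tissue. The first run of G0 perfusion was thus near the level of the whole library, and it held the nucleus with the most Socs2, at 2604 CPM after thinning.

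The stage comparison of Socs2 depended on which nuclei entered it. Among lower-numbered nuclei alone, the log2 fold change at G14.5 against G0 was 2.49 ± 0.30 (adjusted p = 0.00716). Among upper-numbered nuclei alone it was 0.37 ± 0.40 (adjusted p = 0.636), so the call was lost there. The fall at P7L was called in both sets: against G0 it was -2.54 ± 0.30 in lower-numbered nuclei (adjusted p = 0.0349) and -3.84 ± 0.45 in upper-numbered nuclei (adjusted p = 0.0231), and against G14.5 it was -5.03 ± 0.34 (adjusted p = 0.00106) and -4.22 ± 0.45 (adjusted p = 0.00645). The difference between the sets itself was not tested. These splits were chosen after the data had been seen.

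Single nuclei showed the same contrast as the sums. After thinning to 250000 reads, Socs2 had a read in 97.8% of the 90 upper-numbered and 60.4% of the 91 lower-numbered nuclei of G0 perfusion, and in 90.2% of 122 and 52.2% of 115 in G0 liver tissue. The exact 95% intervals were 92.2% to 99.7% and 49.6% to 70.5% in perfusion, and 83.4% to 94.8% and 42.7% to 61.6% in liver tissue. These intervals cover only the drawing of nuclei within a library. Nuclei of a library share their source, and the split was chosen after the data had been seen. The intervals are therefore no test of a difference between the sets. At G14.5 a Socs2 read was found in 95.5% to 100% of nuclei in each set, and at P7L in 23.5% to 35.4%. The median nucleus of G0 held 122 and 70.0 CPM of Socs2 in the upper-numbered sets of perfusion and liver tissue, against 8.0 and 4.0 in the lower-numbered sets; at G14.5 it held 112 and 142 against 236 and 328.

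**Figure D3:**
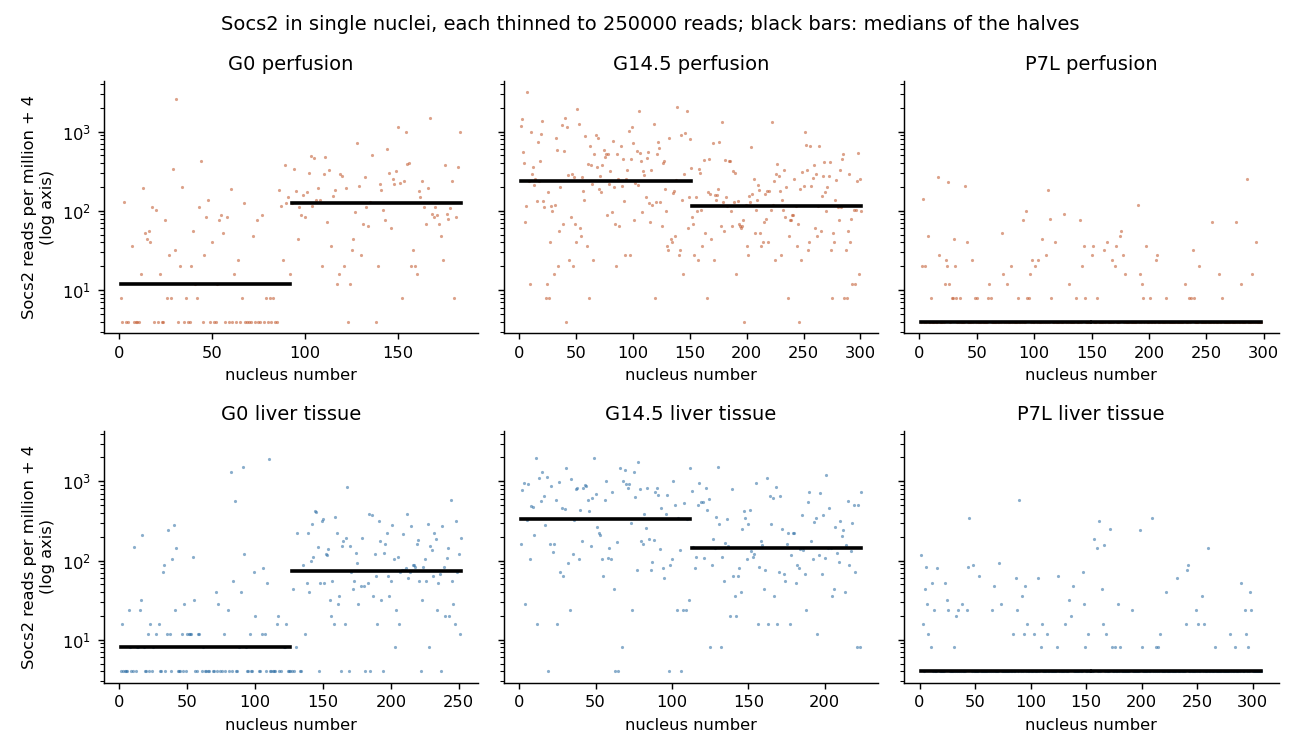
Socs2 CPM plus 4 (log axis) in each nucleus, thinned to 250000 reads, against its number in the column name, for perfusion (top) and liver tissue (bottom) at G0, G14.5 and P7L; black bars are medians of the lower-numbered and upper-numbered nuclei. At G0 the lower-numbered nuclei have medians of 8.0 and 4.0 and the upper-numbered ones 122 and 70.0, before the 4 is added, while at G14.5 the lower-numbered nuclei are the higher ones.

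Cish also differed between the sets at G0 and P7L. At G0 it had 9.20 CPM in perfusion and 8.26 CPM in liver tissue among upper-numbered nuclei, against 4.53 and 1.64 CPM among lower-numbered ones. At P7L the values were 0.849 and 0.855 CPM against 0.249 and 0.0322 CPM, and at G14.5 they were 10.7 and 6.54 CPM against 13.7 and 6.23 CPM. The upper-numbered nuclei were higher in both preparations at G0 and P7L, and at G14.5 in liver tissue but not in perfusion. In 4 runs by number, Cish had 8.66, 0.988, 9.45 and 8.85 CPM in G0 perfusion, so its first run was close to the upper-numbered nuclei. The P7L sets rest on the few nuclei with a read given above. At P7L against G0 the log2 fold change was -4.79 ± 0.84 in lower-numbered nuclei (adjusted p = 0.0697) and -3.35 ± 0.60 in upper-numbered nuclei (adjusted p = 0.0703), so neither passed. At P7L against G14.5 it passed in both, at -6.54 ± 0.91 (adjusted p = 0.0118) and -3.29 ± 0.60 (adjusted p = 0.0356). At G14.5 against G0 it was 1.75 ± 0.72 in lower-numbered nuclei (adjusted p = 0.219) and -0.06 ± 0.54 in upper-numbered nuclei (adjusted p = 0.96).

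Socs3 and Stat5a gave no call in either set at G14.5 against G0, though their values differed. Socs3 was at -0.06 ± 0.78 in lower-numbered nuclei (adjusted p = 0.974) and -2.53 ± 0.70 in upper-numbered nuclei (adjusted p = 0.0928). Stat5a was at 1.27 ± 0.49 (adjusted p = 0.194) and 0.06 ± 0.61 (adjusted p = 0.922). The differences between the sets were not tested.

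Prlr and Igf1, the prolactin receptor and a liver hormone driven by STAT5, moved with the nucleus number at G0 as well. Prlr had 1930 CPM in perfusion and 2426 CPM in liver tissue among upper-numbered nuclei at G0, against 977 and 787 CPM among lower-numbered ones. Igf1 had 2436 and 2539 CPM against 897 and 754 CPM. Both genes were thus higher in upper-numbered nuclei in either G0 library, as Socs2 was. Ghr was too, at 7455 CPM in perfusion and 7138 CPM in liver tissue, against 5518.5 and 5612 CPM in lower-numbered nuclei. Stat5b went the other way, at 197 and 270 CPM in upper-numbered nuclei against 296 and 277 CPM. Jak2 differed by preparation, at 74.5 and 48.7 CPM in upper-numbered nuclei of G0 against 65.4 and 96.2 CPM. At G14.5 Igf1 was again higher in the upper-numbered nuclei, at 1204 and 922 CPM against 948 and 696 CPM, while Socs2 was lower there. At P7L Igf1 had 533 and 613 CPM in upper-numbered nuclei, against 256 and 181 CPM in lower-numbered ones. Prlr did not keep 1 direction at G14.5. It had 14007 CPM in perfusion and 10337 CPM in liver tissue among upper-numbered nuclei, against 11856 and 11535 CPM among lower-numbered ones. At P7L Prlr had 699 and 602 CPM against 462 and 609 CPM. The median depth of upper-numbered against lower-numbered nuclei was 1191247 against 1161532 reads in G0 perfusion and 1162388 against 488595 reads in G0 liver tissue. The part of depth in these values was not tested.

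**Figure D4:**
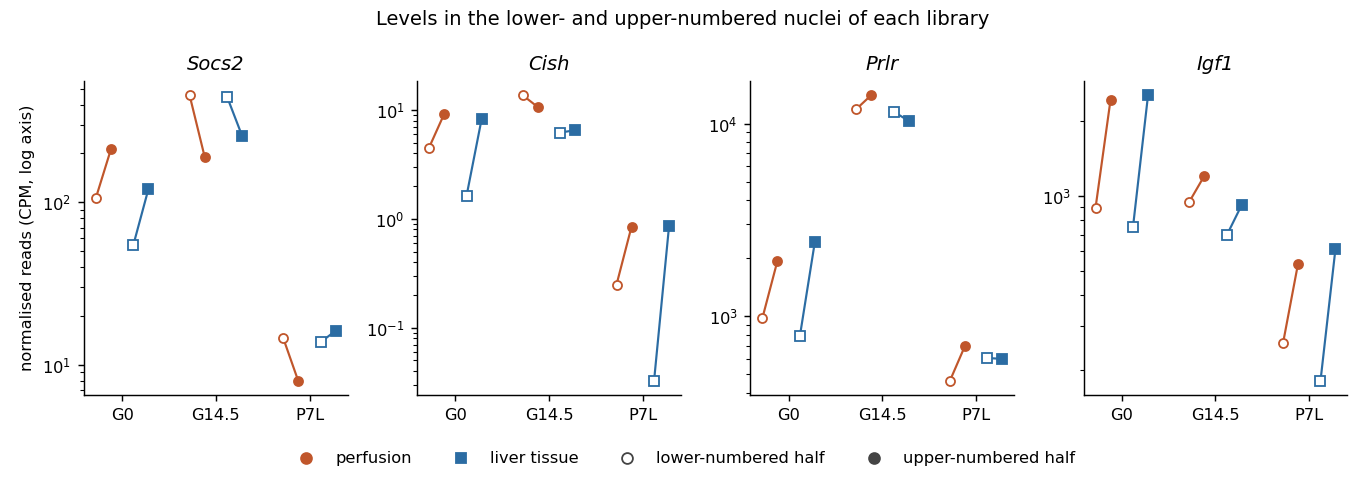
CPM (log axis) of Socs2, Cish, Prlr and Igf1 in lower-numbered (open) and upper-numbered (filled) nuclei of each library at G0, G14.5 and P7L (circles, perfusion; squares, liver tissue). At G0 all 4 genes are higher in upper-numbered nuclei of both libraries, and at G14.5 Socs2 is lower there, at 191 and 257 CPM against 456 and 446 CPM.

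Across the nuclei of 1 library, Socs2 varied with Prlr and Igf1 at G0. Over the 181 thinned nuclei of G0 perfusion Spearman's rho was 0.53 with Prlr and 0.39 with Igf1, and over the 237 of G0 liver tissue it was 0.38 and 0.42. These are descriptions, since nuclei of a library share their source and depth was equalised only by thinning. Within the upper-numbered and lower-numbered sets, rho with Prlr was 0.25 and 0.45 in perfusion and 0.00 and -0.02 in liver tissue, and rho with Igf1 was -0.10 and 0.07 in perfusion and 0.04 and 0.05 in liver tissue. Within the G0 sets, Socs2 with Prlr in perfusion was thus the only one of these pairs above 0.2. The relation over whole libraries was not seen at the other stages. In the G14.5 libraries rho of Socs2 was -0.10 and -0.01 with Prlr and -0.17 and 0.003 with Igf1, perfusion first. In those of P7L it was 0.06 and 0.01 with Prlr and -0.08 and 0.01 with Igf1. Over the 21 pairs of the 7 genes and 6 libraries, rho ran from -0.17 to 0.23.

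Reads of Socs2 and Cish met in the same nuclei according to stage. Both were read in 21.0% of thinned nuclei in perfusion and 24.1% in liver tissue at G0, in 45.7% and 37.5% in the G14.5 libraries, and in 1.35% and 1.70% in those of P7L. Neither was read in 18.8% and 22.4% at G0, 0.667% and 1.34% in the G14.5 libraries, and 67.9% and 68.7% in those of P7L. Most P7L nuclei thus had no read of either feedback gene at this depth, and nearly all G14.5 nuclei had at least 1 of Socs2. Per unit of length, Socs2 exceeded Cish in every library, by 15.7 to 69.1 times on the authors' length-scaled values.

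Several receptors that signal through JAK2 also changed. Of 13 on the list 11 were tested. At G14.5 against G0, 4 were called higher and 1 lower, where 6.93% and 5.01% of all tested genes were. At P7L against G0, 1 was called higher and 1 lower, beside 1.56% and 1.36% of all tested genes. At P7L against G14.5, 4 were called lower, beside 5.06% of all tested genes. The growth hormone receptor Ghr had 6470 CPM in perfusion and 6636 CPM in liver tissue at G0, 29177 and 27766 CPM in the G14.5 libraries, and 4621 and 5268 CPM in those of P7L. The prolactin receptor Prlr had 1446 and 1887 CPM at G0, 13117 and 10939 CPM in the G14.5 libraries, and 583 and 605 CPM in those of P7L. Both rose at G14.5 against G0, with log2 fold changes of 2.12 ± 0.10 (adjusted p = 9.53e-05) and 2.86 ± 0.16 (adjusted p = 0.000176), as Socs2 did. At P7L against G0 Prlr fell (-1.49 ± 0.15, adjusted p = 0.00822), while Ghr at -0.41 ± 0.10 did not pass (adjusted p = 0.0735).

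Lifr, the receptor of leukaemia inhibitory factor, rose most of the list at G14.5 against G0 by fold: it had 14414 CPM in perfusion and 14972 CPM in liver tissue of G14.5, against 755 and 651 CPM at G0 (log2 fold change 4.39 ± 0.14, adjusted p = 2.63e-05). Il6ra, which binds IL-6, rose at G14.5 (0.64 ± 0.12, adjusted p = 0.0175) and at P7L (0.73 ± 0.12, adjusted p = 0.03127) against G0. Its partner Il6st fell at P7L against G14.5 (-0.67 ± 0.15, adjusted p = 0.0367). The leptin receptor Lepr fell at G14.5 against G0 (-1.85 ± 0.30, adjusted p = 0.0113), with 19.3 and 34.8 CPM in the G14.5 libraries against 99.9 and 91.5 CPM at G0, and had 39.5 and 32.6 CPM at P7L (-1.41 ± 0.30 against G0, adjusted p = 0.0578). Ifngr2, a chain of the interferon gamma receptor, had 34.8 and 29.4 CPM at G14.5 against 46.8 and 56.9 CPM at G0, which did not pass (adjusted p = 0.0869).

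The rest of the signalling machinery gave no call. None of the 7 tested other JAK and STAT genes, the 4 tested other SOCS genes and the 17 phosphatases and adaptors was called by edgeR in any stage comparison. Among all tested genes 11.9% were called at G14.5 against G0, 2.92% at P7L against G0 and 9.26% at P7L against G14.5. Genes without a call need not have stayed the same. In simulated data, where only a small part of the genes was changed, the fit recovered 9%, 4% and 6% of 1.5-fold changes in these 3 comparisons. Stat3 had 542 CPM in perfusion and 460 CPM in liver tissue of G14.5, against 312 and 378 CPM at G0 (log2 fold change 0.54 ± 0.15, unadjusted p = 0.00867, adjusted p = 0.0613), and Stat6 and Socs4 came as near at adjusted p values of 0.0644 and 0.0591; these 3 genes were named after their values were seen. Of 7 tested genes for BCL6 corepressors and its paralogue, Bcorl1 fell at G14.5 against G0 (-1.04 ± 0.18, adjusted p = 0.0138) and Ncor1 fell at P7L against G0 (-0.76 ± 0.11, adjusted p = 0.0244).

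Known targets of STAT5 changed in both directions at G14.5 against G0, and more were called lower than higher at P7L. Of 14 tested, 3 rose and 2 fell at G14.5 against G0, none rose and 2 fell at P7L against G0, and 1 rose and 7 fell at P7L against G14.5. Their median log2 fold change was -0.02, -0.56 and -1.29, beside -0.01, 0.01 and -0.00237 over all tested genes. Calls over all tested genes were 6.93% higher and 5.01% lower at G14.5 against G0. They were 1.56% and 1.36% at P7L against G0, and 4.2% and 5.06% at P7L against G14.5. Igf1 fell in all 3 stage comparisons, with 1098 CPM in perfusion and 808 CPM in liver tissue of G14.5 against 1654 and 1952 CPM at G0 (log2 fold change -0.92 ± 0.17, adjusted p = 0.0165), and 397 and 421 CPM at P7L (-2.14 ± 0.17 against G0, adjusted p = 0.00373). The sets of nuclei differed here too. In upper-numbered nuclei Igf1 had 1204 CPM in perfusion and 922 CPM in liver tissue of G14.5, against 2436 and 2539 CPM at G0. In lower-numbered nuclei it had 948 and 696 CPM, against 897 and 754 CPM at G0. Over all nuclei Igf1 was lower and Socs2 higher at G14.5 than at G0, but Socs2 was called in lower-numbered and not in upper-numbered nuclei when each set was fitted alone. Bcl2l1, which codes for the survival protein BCL-XL, rose at G14.5 against G0 (1.2 ± 0.14, adjusted p = 0.0031), as did the kinase gene Pim1 (0.97 ± 0.18, adjusted p = 0.0166) and Bcl2l11 (1.89 ± 0.37, adjusted p = 0.0195), the last named after its values were seen.

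At P7L the targets Cux2, a female-biased repressor, and Gadd45g, a stress and growth-arrest gene, fell against G14.5 with Pim1 and Igf1. Cux2 had 256 CPM in perfusion and 178 CPM in liver tissue at P7L, against 731 and 658 CPM in the G14.5 libraries (log2 fold change -1.68 ± 0.21, adjusted p = 0.00368), and 595 and 768 CPM at G0. Gadd45g had 16.1 and 3.62 CPM at P7L, against 97.8 and 48.8 CPM in the G14.5 libraries (-3.11 ± 0.40, adjusted p = 0.00467). The NADPH oxidase gene Nox4 went the other way, lower at G14.5 than at G0 (-2.19 ± 0.25, adjusted p = 0.0028) and higher at P7L than at G14.5 (1.13 ± 0.24, adjusted p = 0.0287).

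**Figure D5:**
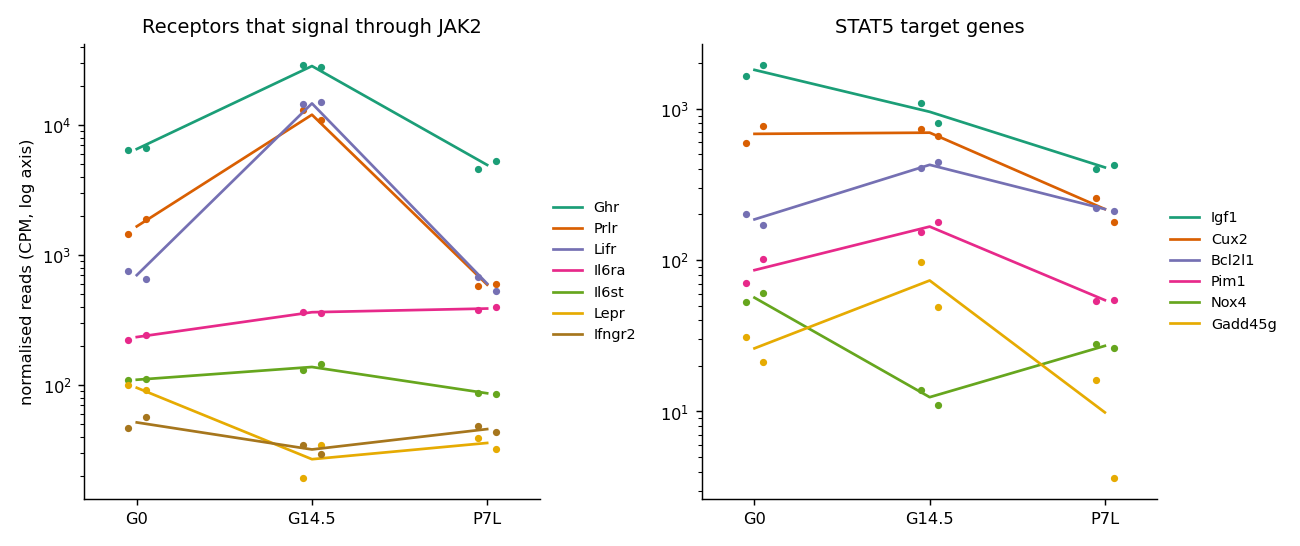
CPM (log axis) at G0, G14.5 and P7L of receptors that signal through JAK2 (left) and of STAT5 target genes (right), 1 point per library (perfusion left, liver tissue right of each stage) with a line through the means. Ghr, Prlr and Lifr peak at G14.5, at 27766 CPM or more for Ghr, while Igf1 declines to 397 and 421 CPM at P7L.

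Sex-biased liver genes, whose pattern follows growth hormone and STAT5B, changed in both directions. For scale, 6.93% of all tested genes were called higher and 5.01% lower at G14.5 against G0. The shares were 1.56% and 1.36% at P7L against G0, and 4.2% and 5.06% at P7L against G14.5. Of 18 tested female-biased genes, 4 rose and 3 fell at G14.5 against G0, 2 rose and 7 fell at P7L against G0, and 3 rose and 6 fell at P7L against G14.5. Cyp2b13 fell at G14.5 (-2.71 ± 0.17, adjusted p = 0.000316) and at P7L (-1.98 ± 0.17, adjusted p = 0.00411) against G0, while A1bg rose at G14.5 (2.07 ± 0.26, adjusted p = 0.00399). Of 15 tested male-biased genes, 3 rose and 1 fell at G14.5 against G0, 3 rose at P7L against G0, and 1 rose and 1 fell at P7L against G14.5. Gstp1 had 89.9 CPM in perfusion and 127 CPM in liver tissue of G14.5 and 66.0 and 66.4 CPM at P7L, above the 14.9 and 18.3 CPM at G0 (log2 fold changes 2.70 ± 0.21, adjusted p = 0.000619, and 2.01 ± 0.20, adjusted p = 0.00774). Cyp7b1 and Serpina1e were the other male-biased genes that rose at both stages.

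Genes of the acute phase response, targets of STAT3, were counted because Socs3 and STAT3 answer IL-6 type signals. Of 18 tested, 6 rose and 2 fell at G14.5 against G0, 3 fell at P7L against G0, and 3 rose and 7 fell at P7L against G14.5. Among all tested genes, 6.93% were called higher and 5.01% lower at G14.5 against G0. These shares were 1.56% and 1.36% at P7L against G0, and 4.2% and 5.06% at P7L against G14.5. Itih4, an acute phase plasma protein gene, rose at G14.5 (1.61 ± 0.17, adjusted p = 0.00217) and fell at P7L (-1.08 ± 0.17, adjusted p = 0.0263) against G0, and Hamp, the gene for the iron hormone hepcidin, fell at both (-3.68 ± 0.23, adjusted p = 0.000316, and -1.57 ± 0.21, adjusted p = 0.0209). Of 14 tested immediate early and heat shock genes 5 fell at G14.5 and 3 at P7L against G0, Egr1 with the smallest p in each (-2.41 ± 0.32, adjusted p = 0.00494, and -3.15 ± 0.33, adjusted p = 0.00845).

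The genes whose profile over the 6 libraries lay nearest to each member were found by the root mean square distance of centred log2 CPM, among 5695 or 5696 genes of at least 20 CPM on average. Stat5b lay nearest to Nfia (distance 0.0537), Hao1 (0.076) and Mtdh (0.0806), and Jak2 to Sbno1 (0.0194), Ccdc59 (0.0389) and Man1a (0.0438). Nearest to Socs2 were Lipc (0.728), Slc25a30 (0.741) and Skil (0.742), which like Socs2 were highest at G14.5 and lowest at P7L. The distance is not scaled to the size of the changes, so it is larger for genes that change more. Cish lay nearest to Cyp2c69 (0.501), Socs2 (0.557) and Cyp2c70 (0.719). Stat5a lay nearest to Gjb2 (0.237), Uggt1 (0.273) and Tmem39b (0.276), Socs3 to Tmem2 (0.197), Etv5 (0.237) and Prpf3 (0.242), and Bcl6 to Gtf2h2 (0.0725), Srbd1 (0.0727) and Ndufa3 (0.0768).

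Position in the liver lobule, from near the portal vein to near the central vein, was read from an index of 15 pericentral and 16 periportal genes, and the most pericentral and most periportal nuclei of each library were compared. Socs2 was higher on the pericentral side in 5 of 6 libraries, by 0.48 ± 0.45 on the log2 scale (SD, n = 6; exact sign-flip permutation test, two-sided, p = 0.0625, adjusted over all tested genes p = 0.388). Stat5b was lower on that side in 5 of 6, with a log2 difference of -0.22 ± 0.15 (exact permutation p = 0.0625, adjusted p = 0.388). None of the 7 reached the smallest p that 6 libraries allow (0.031), which 10.3% of the 14985 genes compared did, and no gene of any kind had an adjusted p under 0.305. With nuclei divided in 2 equal groups, Stat5a (0.40) and Stat5b (-0.13) reached that smallest p.

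Perfusion against liver tissue gave no call among the 7 genes, and none (0%) among the 15015 tested by edgeR; 707 genes had an unadjusted p under 0.05 and DESeq2 called 87. The log2 fold changes of the 7 ran from -0.22 ± 0.14 for Bcl6 to 0.42 ± 0.35 for Cish (adjusted p = 0.971 for both).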

How the data were processed

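Per the submitters' processing notes, reads were trimmed with Trimmomatic 0.39, aligned with HISAT2 2.1.0 and counted with featureCounts 1.5.3 on GRCm38 (mm10); strand use and filters on nuclei are not given in the sources used here. The authors deposited raw read counts per gene and nucleus, without molecular identifiers, and a TPM-like table in which, from its values, each deposited count is divided by a gene length and each nucleus scaled to 100000 without 3 very abundant genes. Counts were summed per library and tested with edgeR 4.0.16 (R 4.3.3; quasi-likelihood F test, TMM, robust, terms for stage and preparation, all 6 libraries), for genes that passed filterByExpr and had a read in at least 5% of nuclei of 2 libraries, which left 15015. Calls have a two-sided Benjamini-Hochberg adjusted p under 0.05 over all tested genes. There were 2 residual degrees of freedom, and none for stage by preparation. Alternatives used DESeq2 1.42.0 and limma 3.58.1. Shares of nuclei have exact Clopper-Pearson 95% intervals and used the 1532 nuclei with at least 250000 reads; no doublet caller was run. The edgeR fit was tested on simulated data with the same library design, in a single run per comparison. Only a small part of the 15015 genes was changed there. Recovery at an adjusted p depends on that part, so the shares recovered need not hold for the real comparisons. The share of false calls was above the adjusted p threshold in all 4 comparisons. False were 14 of 76 calls at G14.5 against G0, 5 of 58 at P7L against G0 and 6 of 74 at P7L against G14.5. Between preparations 7 of 89 were false. In the same order, 53%, 49%, 62% and 72% of 4-fold changes were recovered. Most 1.5-fold changes were missed, with 9%, 4%, 6% and 10% recovered. Genes named beyond the members are, per list and stage comparison, up to 4 called genes with the smallest p, the receptors with at least 20 CPM in a library and the 3 nearest profiles per member. Promoters come from RefSeq (GRCm38.p6) and loci from GENCODE M21. Members and lists were chosen with earlier results of these data known.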

Additional observations from a re-analysis of the deposited data

Results flagged for a closer look

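Stat5a moved in opposite directions in the preparations at P7L against G0. Its log2 ratio of CPM was 0.77 in perfusion (24.2 CPM at P7L against 14.1 CPM at G0) and -1.35 in liver tissue (16.2 CPM at P7L against 41.2 CPM at G0). With 1 library per stage and preparation the difference was not tested. In G0 liver tissue, the 10% of thinned nuclei with the most Stat5a reads held 81.4% of them, and a single nucleus reached 1476 CPM.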

How the results depend on the processing

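The 6 libraries leave 2 residual degrees of freedom, so few-read genes such as Cish at P7L are limited by depth and by single libraries. The preparation term served as the replicate block; the labels give no shared replicate numbers, and with no replicate block the genes called were 2095, 578, 1597 and 0 (G14.5 against G0, P7L against G0, P7L against G14.5, perfusion against liver tissue), with the same counts of members. In that order DESeq2 called 3429, 1901, 2631 and 87 genes. At P7L against G0, 227 genes were called with no filter, 92 with filterByExpr alone and 6 on the authors' values with a pseudocount of 1. Lower-numbered and upper-numbered nuclei, a split chosen after seeing the data, gave 794 and 706, 74 and 99, and 583 and 488 genes in the stage comparisons. Leaving out 1 library at a time gave 651 to 1942, 37 to 669 and 421 to 2431 genes, and 0 to 2, 1 to 4 and 2 to 4 members. Members called were 0 at G14.5 against G0 in upper-numbered nuclei. At P7L against G0 they were 4 with DESeq2, 0 (pseudocount 1) and 1 (pseudocount 0.1) from the deposited length-scaled values, and 1 in each set of nuclei; at P7L against G14.5 they were 1 with a pseudocount of 1. The causes were not tested.

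Signs that turned belonged to log2 fold changes that were not called. With library size alone they were 0.05 for Jak2 at P7L against G14.5, -0.09 for Bcl6 at G14.5 against G0 and -0.03 for Socs2 between preparations. From the deposited length-scaled values, with pseudocount 1 and then 0.1, these were 0.07 and 0.09, -0.09 and -0.1, and -0.02 and -0.09. Socs2 between preparations was 0 (negative before rounding) with no filter and with DESeq2, and -0.09 in thinned nuclei. In lower-numbered nuclei, Jak2 was -0.36 at P7L against G0 and -0.31 between preparations, and Stat5a was 0.13 at P7L against G0. In upper-numbered nuclei, Jak2 was 0.19 and Socs3 0.58 at P7L against G14.5, Cish was -0.06 and Bcl6 -0.13 at G14.5 against G0, Bcl6 was -0.08 at P7L against G0, and between preparations Stat5a was 0.19 and Socs2 -0.23. Leaving out 1 library at a time, Stat5a ran from -0.22 to 1.78 at G14.5 against G0, from -1.29 to 0.71 at P7L against G0 and from -0.61 to 0.46 between preparations; Socs2 and Socs3 ran from -0.34 to 0.23 and from -0.13 to 0.6 between preparations, Socs3 from -0.88 to 0.37 at P7L against G14.5 and Bcl6 from -0.22 to 0.29 at G14.5 against G0.

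Across the lobule, 2 members reached the smallest p with nuclei in 2 groups and 1 with nuclei in 5 groups. Socs3 was -0.02 and Bcl6 -0.01 with 2 groups, Jak2 0.12 and Cish 0.25 with periportal genes alone, and Cish 0.01 with pericentral genes alone. Leaving out 1 library at a time, the lobule difference ran from -0.27 to 0.05 for Jak2, from -0.37 to 0.78 for Socs3 and from -0.55 to 0.07 for Cish.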

Other observations

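Reads of the less abundant members came from few nuclei. In the thinned nuclei, the 10% with the most reads held 96.7% to 100% of Socs3 reads and 67.0% to 100% of Cish reads in each library, but 28.4% to 40.4% of Stat5b reads and 25.8% to 46.6% of Bcl6 reads. For Socs2 the figure was 53.0% in perfusion and 57.3% in liver tissue of G0, 41.8% and 34.6% in the G14.5 libraries, and 80.4% and 82.3% in those of P7L.

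A read was found in over 50% of thinned nuclei in every library for 3 of the 7 genes.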
